A study of Mus musculus with 14 samples.

Results

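The genes of fatty acid oxidation and ketone body formation were examined in the chromatin of wild-type and YAP-expressing mouse livers. The set holds 30 listed genes of the 21887 protein-coding genes on chromosomes 1 to 19, X and Y, and all 30 were found in the annotation. Each gene was taken as its annotated body on mm10 with 5 kb on either side. By the place of their products, 17 genes were counted as mitochondrial, 7 as peroxisomal and 6 as shared by several compartments or lying outside both. The livers were from C57BL/6 mice, either wild type (WT) or with inducible YAP expression in the liver (YAP). YAP switches on growth genes together with TEAD factors and is held in check by the Hippo kinases. The labels of all libraries, WT and YAP alike, give doxycycline at 50 mg/L in the drinking water for 10 days as the inducer. They do not say outright whether the WT mice received it. The promoter that drives YAP and the sex and age of the mice are not stated there. Antibodies were directed at LSD1, a lysine demethylase, and at its substrates H3K4me1 and H3K4me2, histone H3 carrying 1 or 2 methyl groups on lysine 4. Each was used on 2 libraries per genotype. With 1 input library per genotype this made 14 libraries in 8 groups.

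The values are 6 deposited lists of enriched regions, 1 per antibody and genotype, and each list stands for both of its libraries. No spread between replicates can be computed from them, so no difference below carries a test or a p-value, and the read depth per library is unknown. Every value describes these lists. Whole liver was used, so fewer cells of a type and less mark per cell cannot be told apart. Of 10 hepatocyte marker genes, among them Alb and Hnf4a, 9 had fewer H3K4me2-covered bases in YAP, with 102.7 kb in sum in WT and 77.7 kb in YAP. Of 11 macrophage markers, 7 carried any H3K4me2 and all 7 had more in YAP, with sums of 8.43 kb and 19.9 kb, while Marco, Vsig4, Lyz2 and Itgam were at 0 in both lists. The sums for WT and YAP were 17.8 kb and 13.7 kb over 10 endothelial markers, 10.6 kb and 2.36 kb over 10 stellate markers, 13.4 kb and 19.4 kb over 10 biliary markers, and 9.29 kb and 10.6 kb over 10 lymphocyte markers. By gene, 4 endothelial markers had fewer bases in YAP and 5 more, and 3 lymphocyte markers fewer and 2 more, against the direction of their sums. Of the stellate markers 5 had fewer and 2 more, and of the biliary markers 2 and 3. The part of cell composition in the results on the 30 genes was not tested.

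Fatty acids enter the hepatocyte, are bound by Fabp1 and are activated to acyl-CoA by synthetases. Long chains pass into mitochondria as carnitine esters and are shortened there in repeated rounds of oxidation, hydration, oxidation and cleavage, whose electrons leave through the electron transfer flavoprotein. Very long and branched chains are first shortened in peroxisomes, and in fasting the liver turns the acetyl-CoA into ketone bodies for other organs. Many of these genes are known targets of PPARα, a nuclear receptor that binds with RXR to direct repeats of a hexamer spaced by 1 base. H3K4me2 marks active promoters and the regulatory DNA around them.

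The promoters of 6 of the 30 genes are shown first, because these genes recur in the results below. Over the set, the H3K4me2 differences were larger beyond 2 kb after the start than around it. Each promoter is the RefSeq entry for GRCm38.p6, which has the coordinates of mm10, from 250 bases before to 50 bases after the start, on the strand of the gene. Fabp1, the liver fatty acid binding protein, showed the largest difference in H3K4me2 among the 30. Its promoter, chr6:71199629-71199928 on the plus strand, is printed with a direct repeat match and the TATA box in capitals.
Fabp1: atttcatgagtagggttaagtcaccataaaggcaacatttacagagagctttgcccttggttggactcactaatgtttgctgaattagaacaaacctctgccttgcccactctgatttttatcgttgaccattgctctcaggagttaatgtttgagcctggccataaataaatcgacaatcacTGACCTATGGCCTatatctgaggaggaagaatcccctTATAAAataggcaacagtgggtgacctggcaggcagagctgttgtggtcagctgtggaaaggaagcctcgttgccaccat
The repeat match begins 67 bases before the start on the minus strand, and the TATA box 30 bases before it. In WT, 141 of these bases lay in a listed H3K4me2 region, and in YAP 0 did.

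Acadm, Etfb and Etfdh were the 3 genes, of the 26 with a listed start, whose start was met by an LSD1 region, in the YAP list and not in the WT list. Their promoters are chr3:153944594-153944893 on the minus strand, chr7:43443822-43444121 on the plus strand and chr3:79628718-79629017 on the minus strand. Capitals mark the bases inside the YAP LSD1 region, which are 188, 300 and 224 of the bases shown.
Acadm: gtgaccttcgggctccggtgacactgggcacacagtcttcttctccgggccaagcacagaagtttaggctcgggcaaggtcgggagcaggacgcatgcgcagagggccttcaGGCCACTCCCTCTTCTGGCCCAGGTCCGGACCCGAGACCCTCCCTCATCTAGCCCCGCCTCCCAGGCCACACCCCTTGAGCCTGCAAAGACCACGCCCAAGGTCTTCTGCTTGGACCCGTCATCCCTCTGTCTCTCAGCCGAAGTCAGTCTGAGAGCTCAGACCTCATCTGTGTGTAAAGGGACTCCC
Etfb: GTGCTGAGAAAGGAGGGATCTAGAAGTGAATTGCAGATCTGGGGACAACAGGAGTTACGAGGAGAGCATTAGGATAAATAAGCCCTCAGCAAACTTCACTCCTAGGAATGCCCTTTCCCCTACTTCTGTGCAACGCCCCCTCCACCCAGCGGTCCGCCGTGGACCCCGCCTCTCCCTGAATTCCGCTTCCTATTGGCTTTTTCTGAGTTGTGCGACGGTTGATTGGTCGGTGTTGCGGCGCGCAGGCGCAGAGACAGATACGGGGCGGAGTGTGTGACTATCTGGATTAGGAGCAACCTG
Etfdh: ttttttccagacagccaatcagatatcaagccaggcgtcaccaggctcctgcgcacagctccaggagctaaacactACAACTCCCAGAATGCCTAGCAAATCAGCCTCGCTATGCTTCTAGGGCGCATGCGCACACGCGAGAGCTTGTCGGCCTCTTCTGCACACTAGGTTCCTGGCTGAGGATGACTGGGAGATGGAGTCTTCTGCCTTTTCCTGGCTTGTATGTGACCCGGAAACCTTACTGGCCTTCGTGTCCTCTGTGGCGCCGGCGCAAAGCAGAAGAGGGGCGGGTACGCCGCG
These entries have a GC content of 62.3% for Acadm, 55.3% for Etfb and 57.3% for Etfdh, against 45.0% for Fabp1.

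Acaa1a and Acaa1b encode the paired peroxisomal thiolases and differed from each other in H3K4me2. Their promoters, chr9:119341044-119341343 on the plus strand and chr9:119157044-119157343 on the minus strand, are printed with each CCAAT match in capitals.
Acaa1a: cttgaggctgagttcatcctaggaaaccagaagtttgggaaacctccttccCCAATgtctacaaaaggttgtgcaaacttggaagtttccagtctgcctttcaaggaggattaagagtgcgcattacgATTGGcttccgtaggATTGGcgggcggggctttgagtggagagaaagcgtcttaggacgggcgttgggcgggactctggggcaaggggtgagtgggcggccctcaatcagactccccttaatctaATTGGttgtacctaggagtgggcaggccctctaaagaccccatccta
Acaa1b: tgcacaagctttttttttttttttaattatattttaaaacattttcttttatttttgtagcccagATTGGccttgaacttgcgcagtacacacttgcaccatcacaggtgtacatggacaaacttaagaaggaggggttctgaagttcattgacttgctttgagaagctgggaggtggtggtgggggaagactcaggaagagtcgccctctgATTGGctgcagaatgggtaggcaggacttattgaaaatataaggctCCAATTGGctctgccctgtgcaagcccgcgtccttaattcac
Within these entries H3K4me2 covered 131 bases in WT and 173 in YAP at Acaa1a, and 151 and 190 at Acaa1b, so both had more in YAP. A link between the letters and H3K4me2 was not tested. Both entries hold 4 CCAAT matches. The GC box GGGCGG occurs 3 times in the Acaa1a entry and 0 times in the Acaa1b entry, and their GC contents are 53.3% and 43.7%.

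A promoter entry was found for 26 of the 30 genes; Acaa2, Decr1, Slc27a5 and Crat had none. Where a gene had several entries, the one farthest upstream was used. On either strand, a direct repeat of the hexamer AGGNCA spaced by 1 base was present in 1 of the 26, Fabp1, and in 0.381% of all 32851 promoter entries of the table. The single hexamer AGGTCA, which is contained in some matches of the repeat, was present in 5 (Cpt1a, Acadm, Acadvl, Fabp1 and Slc27a2) and in 16.3% of all entries. The TATA box TATAAA was present in 1, again Fabp1, and in 13.6% of all entries, and CCAAT in 11 and 37.4%. GGGCGG was present in 19 of the 26 and in 35.7% of all entries. GGAATG, the core motif of the TEAD factors through which YAP acts, was present in 6 (Cpt1a, Ehhadh, Acsl1, Pex11a, Etfb and Slc25a20) and in 14.7% of all entries. These matches describe letters in a window of this length and are not evidence of binding.

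Most of the set had fewer H3K4me2-covered bases in YAP livers. This measures the extent of listed regions and not the amount of mark. The median authors' score of these regions was 78 in WT (whole list 86) and 92 in YAP (whole list 90). By median, the differences were larger at the genes for uptake, activation and carnitine transfer than at those of the mitochondrial cycle. This grouping by role was not among the planned comparisons, and no alternative was computed for it. Median WT coverage was 9.54 kb at the uptake and activation genes and 5.11 kb at the cycle genes. H3K4me2-covered bases were fewer in YAP at 26 of the 30 genes (86.7%) and more at 4, Acadm, Acadl, Etfa and Acaa1a. Among the 14915 genes with any covered base in either list, 59.1% had fewer in YAP. On a scale of log2((YAP bases + 500)/(WT bases + 500)), which is used for every log2 value here, the median of the set was -0.32 and that of all these genes -0.06. The median of the 10 hepatocyte markers was -0.37, close to that of the set. With the higher-scoring 50% of each list the median of the set was -0.14, and with regions of a list within 1 kb joined it was -0.20. At least 1.5-fold lower values on that scale were found at 7 genes (23.3%), Fabp1, Acaa1b, Bdh1, Crot, Acsl1, Cpt1a and Slc27a5, against 7.25% of the genes with any covered base. At least 1.5-fold higher values were found at 0 of the 30, against 7.71%. Because genes with little H3K4me2 vary most on such a scale, 2 comparisons with genes of like coverage were added after the data were seen. Among 11967 genes with a mean coverage of both lists at or above that of the least covered gene of the set, 1.72 kb, 62.9% had fewer bases in YAP, 5.13% were at least 1.5-fold lower and the median was -0.08. Among 4565 genes at or above the median coverage of the set, 4.83 kb, 66.2% had fewer bases in YAP and the median was -0.09.

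**Figure D1:**
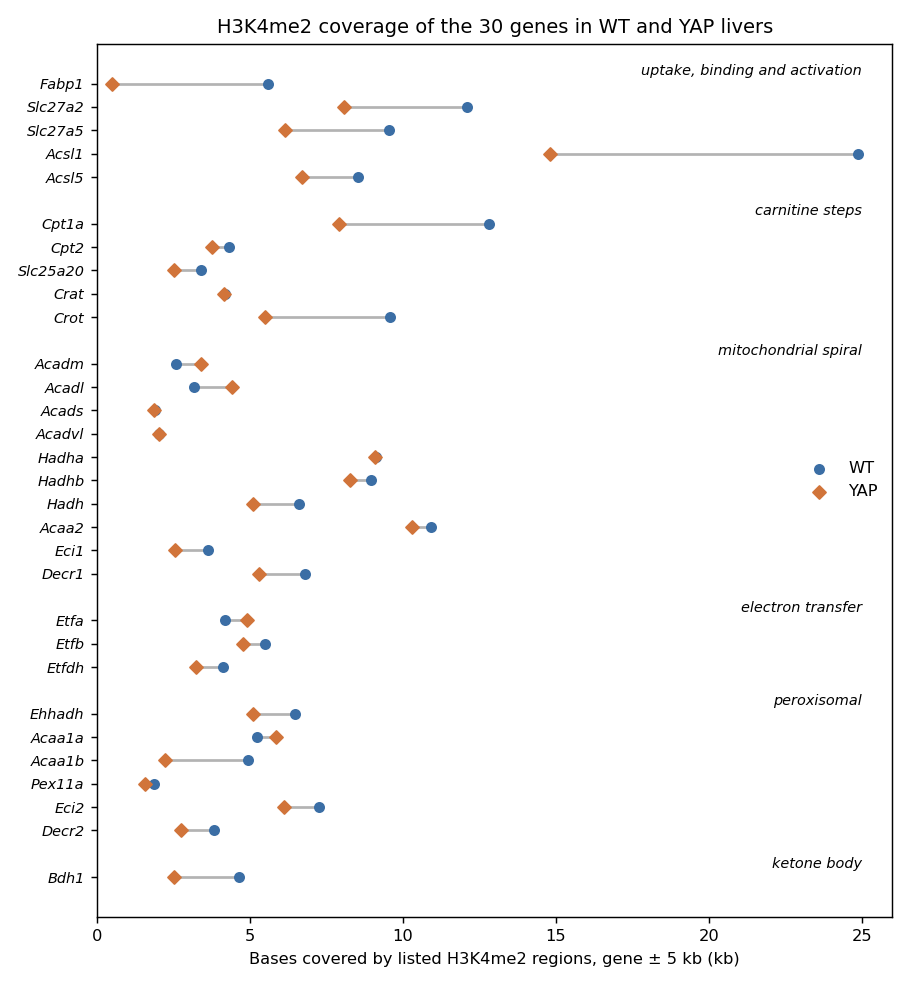
H3K4me2-covered bases (kb) within the gene body and 5 kb on either side for each of the 30 genes, grouped by role; circles are the WT list, diamonds the YAP list, and each list stands for 2 libraries. The YAP diamond lies left of the WT circle at 26 genes, and the widest gaps are at Acsl1, Fabp1, Cpt1a, Crot and Slc27a2.

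Uptake, binding and activation included the gene with the largest difference of the set. Fabp1 (chr6:71199879-71205034) had 5.58 kb in 4 regions in WT and 0.486 kb in 1 region in YAP, a log2 difference of -2.62. In WT a single region of 4.44 kb ran from the start over most of the gene, and in YAP the one listed region lay inside that stretch. Acsl1, the main long-chain acyl-CoA synthetase of liver (chr8:46471037-46536051), was the most widely covered gene of the set, with 24.87 kb in 16 regions in WT and 14.8 kb in 13 in YAP (log2 -0.73). Acsl5, a second synthetase, had 8.54 kb and 6.69 kb (log2 -0.33). The very long-chain transporter and synthetase Slc27a2 had 12.1 kb in 10 regions in WT and 8.08 kb in 5 in YAP (log2 -0.55). Slc27a5, which activates bile acids and very long-chain fatty acids, had 9.54 kb in 8 regions and 6.13 kb in 4 (log2 -0.60). All 5 genes of this step thus had fewer covered bases in YAP, with 60.6 kb in sum in WT, 36.2 kb in YAP and a median of -0.60.

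The carnitine steps followed, also with fewer bases at 5 of 5 genes, but unevenly. Cpt1a, the rate-setting carnitine palmitoyltransferase of the outer mitochondrial membrane (chr19:3322326-3385735), had 12.8 kb in 10 regions in WT and 7.90 kb in 6 in YAP (log2 -0.66). Crot, which makes carnitine esters of the medium chains that leave peroxisomes, had 9.58 kb and 5.50 kb (log2 -0.75). Cpt2, the inner membrane partner of Cpt1a, had 4.32 kb and 3.74 kb, a much smaller difference of -0.18. The carnitine carrier Slc25a20 had 3.41 kb in 5 regions and 2.50 kb in 2 (log2 -0.38). The acetyltransferase Crat was nearly equal, with 4.19 kb in WT and 4.15 kb in YAP. The differences at Cpt2 and Crat were smaller than those at Eci1, Hadh and Decr1 of the mitochondrial cycle.

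The 10 genes of the mitochondrial cycle, the auxiliary enzymes Eci1 and Decr1 included, had 55.6 kb in sum in WT and 52.3 kb in YAP. Fewer bases were found in YAP at 8 of 10, the differences ran from -0.44 to 0.43, and their median was -0.05, near the -0.06 of all genes. The 4 acyl-CoA dehydrogenases, which take the first step for chains of different length, did not differ in 1 direction. Acadm, the medium-chain enzyme, had 2.57 kb in WT and 3.40 kb in YAP (log2 0.34). Acadl, the long-chain enzyme, had 3.16 kb in 2 regions and 4.42 kb in 6 (log2 0.43), the largest higher value in the set. Acads, the short-chain enzyme, had 1.88 kb and 1.86 kb, and Acadvl, the very long-chain enzyme, 2.03 kb and 2.01 kb. Hadha and Hadhb encode the subunits of the trifunctional protein and are transcribed away from each other from adjoining starts, so their windows share bases and are not independent. Hadha had 9.10 kb in both lists, and Hadhb 8.95 kb in WT and 8.27 kb in YAP. Hadh, the short-chain hydroxyacyl-CoA dehydrogenase, had 6.59 kb and 5.10 kb (log2 -0.34). Acaa2, the mitochondrial thiolase, had 10.9 kb and 10.3 kb.

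The auxiliary enzymes for unsaturated chains had somewhat fewer bases in YAP. Eci1, an enoyl-CoA isomerase, had 3.62 kb and 2.55 kb (log2 -0.44), and Decr1, the mitochondrial dienoyl-CoA reductase, 6.80 kb and 5.29 kb (log2 -0.33). The electron transfer genes did not move in 1 direction. Etfa had 4.16 kb in WT and 4.91 kb in YAP, its partner subunit Etfb 5.50 kb and 4.75 kb, and Etfdh, the membrane dehydrogenase that passes the electrons to ubiquinone, 4.13 kb and 3.22 kb. Bdh1, which converts acetoacetate to beta-hydroxybutyrate in mitochondria, was the one ketone enzyme of the set and stood apart from the cycle, with 4.64 kb in 8 regions in WT and 2.51 kb in 4 in YAP (log2 -0.77).

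Of the peroxisomal enzymes the thiolases differed most from each other. Acaa1b (chr9:119148043-119157093) had 4.94 kb in WT and 2.22 kb in YAP (log2 -1.0), the second lowest value in the set. Acaa1a (chr9:119341028-119350296) had 5.22 kb and 5.86 kb (log2 0.15). The genes are near copies, and how reads that fit both were placed is not stated in the sources used, so their separate values are uncertain. Ehhadh, the peroxisomal bifunctional enzyme, had 6.48 kb and 5.10 kb (log2 -0.32). Eci2, an isomerase, had 7.24 kb and 6.10 kb, and Decr2, the peroxisomal dienoyl-CoA reductase, 3.81 kb and 2.75 kb. Pex11a, which takes part in peroxisome division, had 1.88 kb and 1.57 kb in 1 region each.

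By compartment, the mitochondrial genes had a median of -0.18, with fewer bases in YAP at 14 of 17, and the peroxisomal genes, Crot included, a median of -0.32, with fewer at 6 of 7. The shared or other genes had a median of -0.58, with fewer at 6 of 6. Summed over genes, YAP held 0.865 of the WT bases at the mitochondrial genes (94.6 kb and 81.8 kb), 0.743 at the peroxisomal genes (39.2 kb and 29.1 kb) and 0.623 at the others (64.8 kb and 40.3 kb). At least 1.5-fold lower values were found at 2 of 17, 2 of 7 and 3 of 6. The mitochondrial and peroxisomal medians differed by 0.13, and single genes of either class ranged more widely than that: from -0.77 at Bdh1 to 0.43 at Acadl among the mitochondrial genes, and from -1.0 to 0.15 at the peroxisomal thiolases. Genes are not replicates, and no test was made between the classes.

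**Figure D2:**
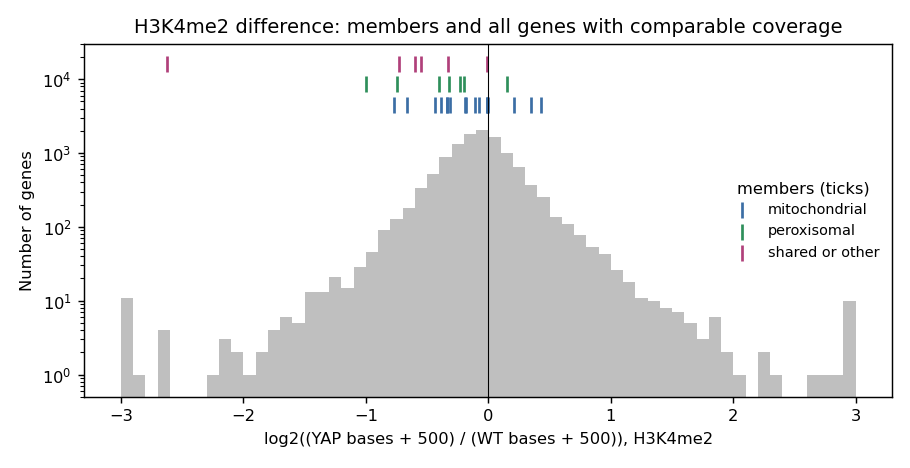
Number of genes (log axis) by log2 difference in H3K4me2-covered bases, for the 11967 genes with a mean coverage of at least 1.72 kb; values beyond the axis are placed in the end bins, and ticks above the bars are the 30 genes by compartment. The ticks of all 3 classes lie mostly left of 0, and the one far to the left is Fabp1 at -2.62.

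In these windows the YAP list held fewer H3K4me2 regions and fewer covered bases. Merged so that each base counts once, the windows spanned 1087 kb, of which H3K4me2 covered 189.8 kb in 150 regions in WT and 143.0 kb in 127 regions in YAP. The ratio of bases was 0.753, against 0.938 for the whole lists (52.2 Mb and 48.99 Mb), the ratio of region numbers was 0.847, and the mean per region was 1265 and 1126 bases. The median width went the other way, with 594 bp in WT and 720 bp in YAP. When regions of a list within 1 kb were joined, the ratio of region numbers turned to 1.08. Of the WT bases, 68.6% were also covered in YAP, 18.9% were edges of regions that overlapped a YAP region, and 12.5% were in the 51 regions without any YAP overlap. Over the whole WT list these shares were 77.3%, 11.9% and 10.8%. Of the YAP bases in the windows, 91.1% were also covered in WT, 6.03% were edges and 2.89% were in 14 regions without overlap, against 82.4%, 9.08% and 8.52% of the whole YAP list. So nearly all that was listed at these genes in YAP was already listed in WT.

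The longest H3K4me2 region of a gene was shorter in YAP at 27 of the 30 and longer at Acadm, Acads and Acaa1a. It was shorter in YAP at 57.6% of the 11967 genes with like coverage and at 59.3% of the 4565 genes at or above the median coverage of the set. Its median over the genes was 3378 bp in WT and 2425 bp in YAP, and 11 genes in WT but 2 in YAP, Acaa2 and Acsl1, had a region of at least 4 kb. Over the 4565 genes the medians were 2981 bp and 2833 bp, and 1062 genes in WT and 870 in YAP had such a region. The cut of 4 kb was not planned, and several genes of the set lie close to it. Decr1 passed it in WT with 4106 bp and missed it in YAP with 3986 bp. Hadha and Hadhb share a single WT region of 4214 bp, which was counted for both. At Acsl1 the longest region measured 10.0 kb in WT and 4.89 kb in YAP, at Crot 7367 bp and 3303 bp, and at Acaa1b 4.51 kb and 1.39 kb. Some long WT regions were largely covered by several shorter YAP regions. That of Acsl1 overlapped 4 YAP regions, on 8428 of its 10009 bases, and that of Hadh 2, on 3752 of 3921. At Crot YAP covered 4706 of the 7367 bases, and at Acaa1b 1928 of 4511. The longest region was not measured with regions within 1 kb joined. The number of regions per gene said less: it was lower in YAP at 13 genes, higher at 9 and equal at 8, since a region that breaks up counts as more regions.

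Measured from the start in the direction of transcription, the difference grew with distance into the gene. This profile was added after the data were seen and covers the 26 genes with a listed start. From 0.5 to 2 kb after the start, coverage was 96.0% of bases in WT against 89.99% in YAP, and the ratio of covered bases was 0.937. From 2 to 5 kb the shares were 51.0% and 35.3% (39.8 kb and 27.5 kb), a ratio of 0.691. There 20 genes had fewer bases in YAP, 2 had more and 4 were equal, against 4483, 3009 and 2138 of 9630 genes with like coverage and a listed start. From 5 to 10 kb the shares were 16.3% and 6.58% (21.2 kb and 8.55 kb), a ratio of 0.404, with 10 genes lower, 0 higher and 16 equal, against 1680, 1071 and 6879 of the 9630. Upstream, the ratio was 0.918 in the bin between 5 and 2 kb before the start and 0.917 in the next bin, which ends 0.5 kb before it. Within 0.5 kb of the start it was 0.927.

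The ratios of the 9630 genes in the same order from 0.5 kb on were 0.987, 0.899 and 0.848. The 3686 genes at or above the median coverage of the set gave 0.992, 0.918 and 0.821. The ratio over the set therefore lay below both in each of these bins, most widely from 5 to 10 kb. Between 2 and 0.5 kb before the start the set had 0.917 against 0.957 and 0.955, and within 0.5 kb of it 0.927 against 0.962 and 0.950. Farther upstream, to 5 kb, the set was higher, with 0.918 against 0.888 and 0.898. With each gene left out in turn the ratio from 2 to 5 kb ran from 0.666 (without Acsl1) to 0.740 (without Fabp1), and that from 5 to 10 kb from 0.310 (without Acsl1) to 0.469 (without Cpt1a). The last bin rests on 10 genes: Cpt1a, Hadh, Ehhadh, Acaa1b, Acsl1, Acsl5, Bdh1, Fabp1, Slc27a2 and Crot.

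**Figure D3:**
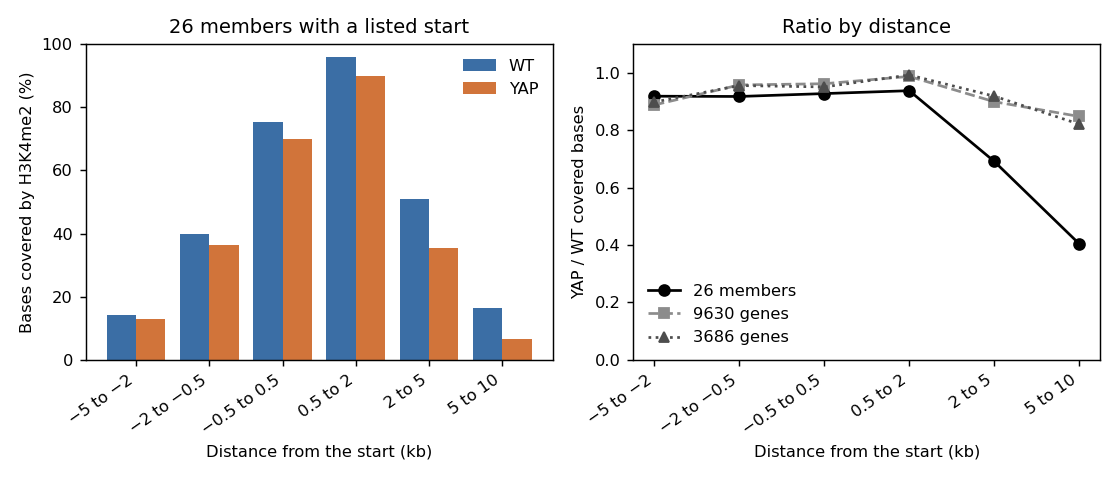
Left, percent of bases covered by H3K4me2 in WT and YAP by distance from the start (kb, negative values upstream) over the 26 genes with a listed start. Right, the ratio of covered bases, YAP over WT, for these genes and for 9630 and 3686 genes with at least the lowest and at least the median coverage of the set; the line of the 26 genes drops to 0.691 and 0.404 in the last bins, where the others stay above 0.8.

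Single genes differed in where the bases were fewer. At Cpt1a the longest region, which begins just after the start, was nearly equal, 3.90 kb in WT and 3.82 kb in YAP, while the bases from 5 to 10 kb numbered 3.69 kb in WT and 0.358 kb in YAP. At Slc27a2 the same stretch held 4.84 kb and 1.25 kb, although YAP covered more of the 0.5 kb on either side of the start, 1.0 kb against 0.292 kb. At Acaa1b the start was covered alike, 0.705 kb and 0.760 kb, and the stretch from 2 to 5 kb held 2.61 kb in WT and 0.069 kb in YAP. At Crot that stretch was filled in WT, with 3.0 kb, and held 1.40 kb in YAP. Acsl1 filled that stretch in both lists, with 3.0 kb, and differed beyond it, with 5.0 kb and 3.54 kb from 5 to 10 kb. Fabp1 alone among these 6 had no covered base within 0.5 kb of its start in YAP, against 0.841 kb in WT.

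**Figure D4:**
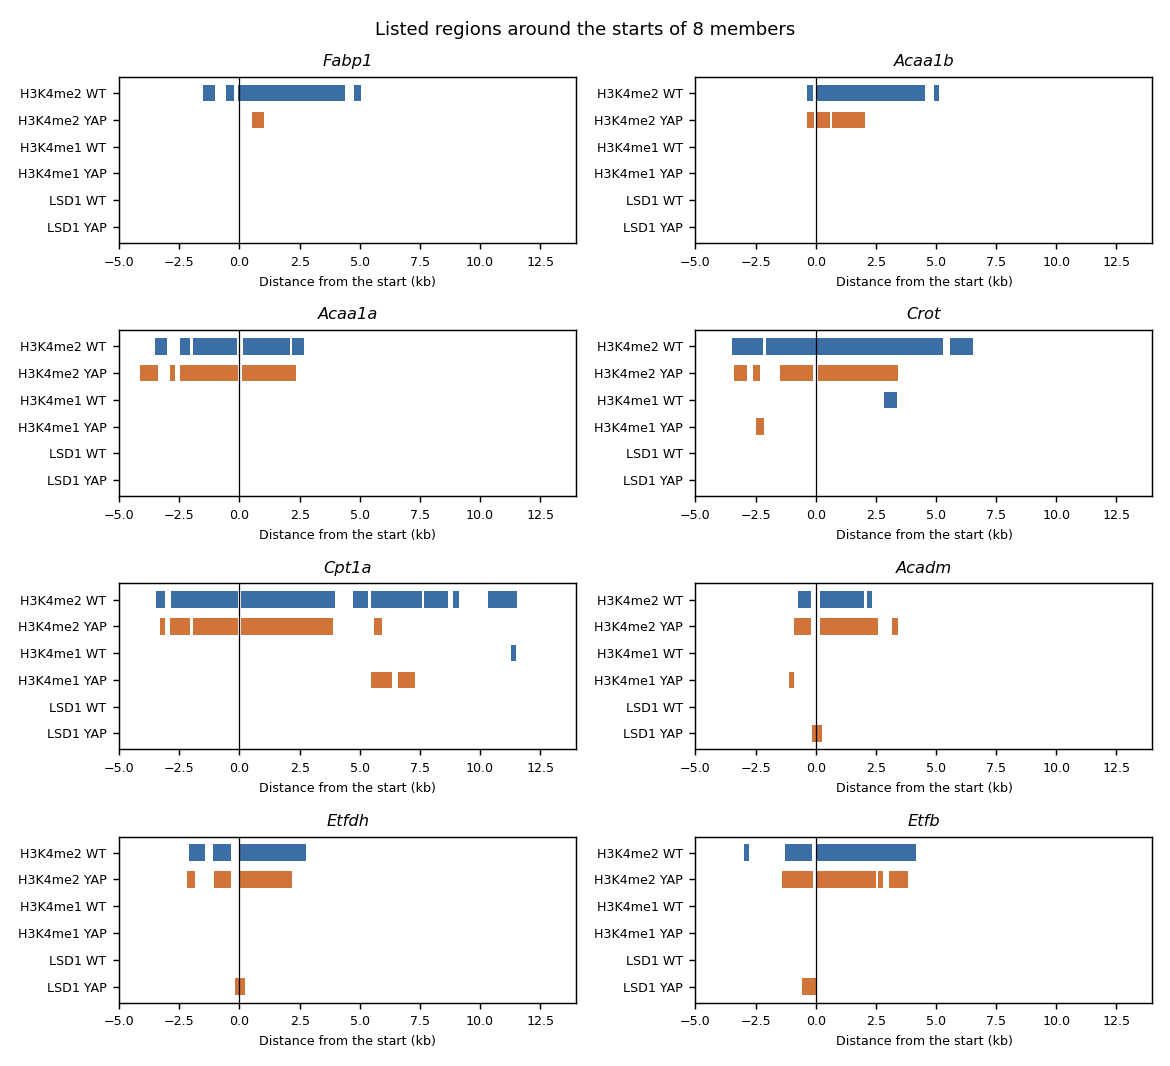
Listed regions of the 3 antibodies in WT and YAP around the starts of 8 genes, drawn to scale by distance from the start (kb, in the direction of transcription). The WT H3K4me2 blocks of Fabp1, Acaa1b, Crot and Cpt1a reach farther into the gene than the YAP blocks, and the YAP LSD1 regions of Acadm, Etfdh and Etfb sit at the start.

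LSD1 was rare at this set in both genotypes. In YAP 5 genes had a region and in WT 1, with 0 in common and 24 without any. The 5 with LSD1 in YAP only (16.7%) compare with 8.08% of all 21887 genes, but with 13.6% of the 11967 genes with like H3K4me2 coverage, a share near that of the set. With the same number of highest-scoring regions taken from both lists, 2 genes had it in YAP only, Acsl1 and Etfb, so Acadm and Etfdh no longer did. WT only was found at 1 of 30 and 2.86% of all genes, and both at 0 of 30 and 3.05%. The lists hold 1500 merged LSD1 regions in WT and 2949 in YAP. By compartment, 4 mitochondrial genes had LSD1 in YAP only and 1 in WT only, 0 of the 7 peroxisomal genes had it in either list, and Acsl1 had it in YAP only.

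At 3 genes the YAP region sat on the start. At Acadm (chr3:153944382-153944781, authors' score 654) its centre lay 62 bp after the start, at Etfdh (chr3:79628542-79628941, score 599) 26 bp after it, and at Etfb (chr7:43443491-43444139, score 866) 257 bp before it. Each lay partly on YAP H3K4me2 and partly in a gap between listed regions: 91 of 400 bases at Acadm, 199 of 400 at Etfdh and 482 of 649 at Etfb were on YAP H3K4me2. The Etfb region also lay within 1 kb of Cldnd2, and the Etfdh region within 1 kb of 4930579G24Rik, so neither region can be given to 1 gene alone. Position on a start is common in these lists: 33.1% of 1449 WT and 31.6% of 2852 YAP regions, on chromosomes with listed starts, had their centre within 500 bp of one. H3K4me2 at these 3 genes went different ways, higher in YAP at Acadm (2.57 kb and 3.40 kb) and lower at Etfb and Etfdh.

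Of the other LSD1 regions, the highest-scoring one at the set, with an authors' score of 978, was in the body of Acsl1 (chr8:46499568-46499967), 8.80 kb from the nearest listed start, where 205 of its 400 bases lay on YAP and 265 on WT H3K4me2. The region counted for Slc25a20 (chr9:108687359-108687758, score 628) lay outside the gene body, 25.4 kb from the start. The only WT region was at the upper end of Decr1 (chr4:15945344-15945739, score 661), with all 396 bases on H3K4me2 of both genotypes; Decr1 has no listed start, so its distance from one was not measured.

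H3K4me1 covered little of the set and hardly differed in covered bases. The merged windows held 27 regions in both lists, with 9.18 kb in WT and 9.57 kb in YAP. By gene, 10 carried H3K4me1 in both genotypes (33.3%), 2 in WT only (Decr1 and Slc27a5), 2 in YAP only (Acadm and Slc27a2) and 16 in neither. Over all genes the shares were 6.33% for both, 3.17% for WT only and 4.98% for YAP only, and for both it was 11.5% among the 11967 genes with like H3K4me2 coverage. Among the 4565 genes at or above the median H3K4me2 coverage of the set, 1097 carried H3K4me1 in both, so the share rose with coverage. The region counted for Slc27a5 lay within 1 kb of its neighbour Zfp446 and outside the body of Slc27a5. The widest coverage was at Acsl1 (2.38 kb in WT, 1.87 kb in YAP) and at the shared stretch of Hadhb (2.14 kb and 1.86 kb) and Hadha (1.54 kb and 1.17 kb).

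The places mostly differed, as they did over the whole lists: 6 of the 27 regions in either list overlapped a region of the other, against 25.5% of all 5905 WT regions and 23.5% of all 6274 YAP regions. In WT 19 of the 27 regions touched H3K4me2 of the same genotype (52.8% of the whole list), and in YAP 13 did (42.0%). H3K4me2 of the WT list was touched by 17 of the 27 YAP regions (44.6% of the whole list), and 5 touched that list only (10.2%). Of the WT regions 0 touched YAP H3K4me2 only (3.59% of the whole list). The longest of the 5 YAP regions that touched H3K4me2 of WT only was at Cpt1a, with 678 bp. The H3K4me1 of Cpt1a measured 0.230 kb in WT and 1.52 kb in YAP. Its YAP regions were 844 and 678 bp long, with centres 5.90 and 6.95 kb after the start. They lay with every base inside WT H3K4me2, of which 358 and 0 bases were also H3K4me2 in YAP. That is the stretch in which Cpt1a had 3.69 kb of H3K4me2 in WT. At Acsl1 3 of the 6 YAP H3K4me1 regions touched H3K4me2 of WT only. Slc27a2 had 1 such region, 8.49 kb after the start, and 1 on H3K4me2 of both genotypes. The YAP H3K4me1 regions of the set have authors' scores of 31 to 65, with a median of 41 that equals that of the whole list, and the counts are small.

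**Figure D5:**
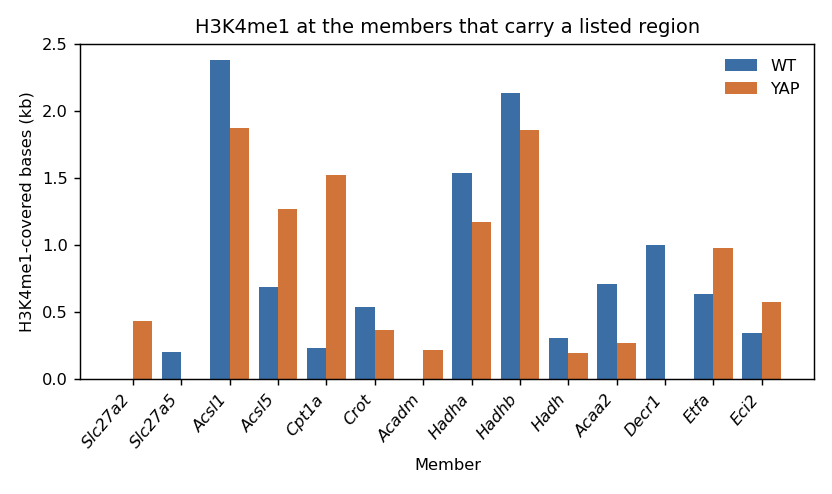
H3K4me1-covered bases (kb) in WT and YAP at the 14 genes with a listed H3K4me1 region in their window, each bar 1 list that stands for 2 libraries. Cpt1a has the largest excess in YAP, 1.52 kb against 0.230 kb, and Decr1 the largest in WT, 1.0 kb against 0.

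The remaining genes with H3K4me1 in both lists differed by less. Acsl5 had 0.690 kb in WT and 1.27 kb in YAP, Etfa 0.635 kb and 0.977 kb, and Eci2 0.348 kb and 0.577 kb. Acaa2 had 0.708 kb and 0.269 kb, Crot 0.537 kb and 0.369 kb, and Hadh 0.306 kb and 0.193 kb. Among the genes in 1 list only, Decr1 had 1.0 kb in WT, Slc27a2 0.434 kb in YAP, Acadm 0.221 kb in YAP and Slc27a5 0.206 kb in WT.

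A list of 72 other genes of the pathway was set beside the 30. Of the 71 with any H3K4me2, 49 (69.0%) had fewer bases in YAP and 22 more, with 15 at least 1.5-fold lower, 4 at least 1.5-fold higher and a median of -0.15. The share with fewer bases was near the 62.9% of the 11967 genes and the 66.2% of the 4565 genes used above. At least 1.5-fold lower values were found at 7.25% of genes with any covered base and 5.13% of the 11967. At least 1.5-fold higher values were found at 7.71% of genes with any covered base. The 22 other peroxisomal genes had 178.1 kb in WT and 118.4 kb in YAP, with fewer bases at 16 (72.7%), at least 1.5-fold lower values at 8 and a median of -0.31. Nudt7, a peroxisomal CoA hydrolase, had 14.1 kb and 3.02 kb (log2 -2.05), and Abcd3, a peroxisomal transporter, 16.3 kb and 6.77 kb (log2 -1.21). The 14 other mitochondrial oxidation genes had a median of -0.06; within them Acacb, whose product makes the malonyl-CoA that restrains Cpt1a, had 5.64 kb and 1.42 kb (log2 -1.68), and the thioesterase Acot2 2.75 kb and 3.64 kb (log2 0.35).

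Ketone body genes outside the set did not share the value of Bdh1. The 7 had 45.0 kb in WT and 45.8 kb in YAP, with fewer bases at 3, more at 4 and a median of 0.04. Bdh2 had 1.18 kb and 3.54 kb (log2 1.26), and Slc16a1, a transporter of ketone bodies and lactate, 4.74 kb and 6.71 kb (log2 0.46). Of the 14 other genes of uptake and activation, 12 had fewer bases in YAP, with a median of -0.24. Acsm1, a medium-chain synthetase, had 12.8 kb and 3.86 kb (log2 -1.61), whereas the scavenger receptor and fatty acid transporter Cd36, which macrophages and endothelium also express, had 2.23 kb and 10.9 kb (log2 2.06). Of the 15 regulators and omega-oxidation genes, 14 carried H3K4me2, and their median was -0.04.

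Ppara, the gene of the receptor itself, had 29.3 kb in 32 regions in WT and 16.0 kb in 23 in YAP (log2 -0.86), and 2 LSD1 regions in each list, of which 1 overlapped between the lists. LSD1 was in YAP only at 8 of the 72 genes (Acad9, Pdk4, Phyh, Hacl1, Acsl4, Mgll, Rxra and Esrra) and in WT only at 4 (Slc16a7, Scp2, Abcd2 and Lpin1). In both lists it was at 8, namely Acox3, Slc27a1, Lipe, Plin5, Ppara, Ppargc1a, Creb3l3 and Fgf21. At Ppargc1a, Creb3l3 and Fgf21 the WT and YAP regions did not overlap. Over all 21887 genes the shares were 8.08% for YAP only, 2.86% for WT only and 3.05% for both. LSD1 was more frequent at genes with like H3K4me2 coverage. Of those 11967, 13.6% were YAP only, a larger share than 8 of 72, while 564 were WT only and 625 both. Of the 4565 at or above the median coverage of the set, 842 were YAP only, 270 WT only and 363 both. All 3 shares thus rose with coverage, for which the 72 genes were not matched. The region counted for Hacl1 lay within 1 kb of Btd, that for Esrra within 1 kb of Catsperz, and those for Plin5 within 1 kb of Plin4. Fgf21, a fasting hormone of liver, had no listed H3K4me2 in WT and 3.06 kb in YAP. Pdk4, the kinase that holds back pyruvate oxidation during fasting, had its YAP LSD1 region 298 bp before the start.

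Several windows of the 30 genes hold other genes: 15 contain at least 1, and the bases counted there cannot be given to 1 gene. The coverage of Fabp1, Acsl1, Slc27a2, Crot and Bdh1 lay in windows with no other protein-coding gene, so 5 of the genes with the largest differences are free of this limit. Cpt1a shares its window with Tesmin, and Acaa1b shares its own with Dlec1.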

How the data were processed

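Chromatin of mouse liver was immunoprecipitated after micrococcal nuclease digestion, per the labels' protocols, so listed regions can follow nucleosome positions. The submitters' processing notes name the build mm10 and list deepTools 3.3.0, bedtools 2.26.0, Picard 1.126, SAMtools 1.7, BWA and Trimmomatic 0.39 in no stated order. How peaks were called, at which threshold, and how replicates were combined is not given in the sources used here. Each region has a score, a signal value and −log10 p and q columns deposited by the authors. The score deposited by the authors was used only to describe or filter regions within a list. The signal deposited by the authors was used only to order regions of equal score when equal numbers of highest-scoring regions were taken. The −log10 p-value deposited by the authors was not used for any comparison.

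Regions of a list were merged where they touched or overlapped. Genes came from a RefSeq table for GRCm38.p6, and covered bases and regions were counted over the gene body with 5 kb on either side. A gene was called lower or higher when its log2 ratio, with 500 bases added to both lists, passed 1.5-fold. The members and gene lists were chosen with earlier results of these data known. Of other pathway genes, those named have an LSD1 region, are among the 4 lowest or 4 highest H3K4me2 differences of those with covered bases in both lists, or are Ppara; a few other genes that the rule names are not reported here; neighbours are named where a counted LSD1 or H3K4me1 region lay within 1 kb of them. The genes Alb, Hnf4a, Marco, Vsig4, Lyz2, Itgam, Tesmin and Dlec1 were named after their values were seen. Counting was checked against bedtools 2.31.1 with simulated regions on the windows of 3000 annotated genes, of which 3000 gave equal values. The scripts used pandas 2.3.3, numpy 2.4.6 and matplotlib 3.10.9 under Python 3.11.15. The input libraries were not analysed here. Alternatives covered the flank, the bases added, score filters, equal list sizes, joined regions, shared windows and the compartment of shared genes.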

Additional observations from a re-analysis of the deposited data

How the results depend on the processing

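Of 76 alternative values, 64 stayed within the limits set for the value reported, 11 moved and 1 reversed. Counts, log2 ratios and the difference of medians were within limits when they changed by at most 1.5-fold. A median was within limits when it fell inside a binomial interval over the genes. Genes are not replicates and these limits are wide, so the tally is not a measure of robustness. The count of genes with fewer H3K4me2 bases in YAP stayed between 23 and 26 of 30 under the alternatives for the whole window. Their median ran from -0.34 to -0.14, with -0.14 for the higher-scoring 50% of each list and -0.20 for joined regions, counted as within limits because genes of the set vary widely. Alternatives chosen after seeing the data were leaving out Fabp1 and counting only 2 kb on either side of the start. In the latter window, with 26 genes, the median was -0.033, 19 had fewer bases and 1 was at least 1.5-fold lower. With 2000 bases added, 4 genes were at least 1.5-fold lower. The ratio of region numbers, YAP over WT, became 1.08 when regions within 1 kb were joined, so its direction reversed, and 0.985 with the higher-scoring 50% of each list; the ratio of bases stayed between 0.725 and 0.769. The mitochondrial minus peroxisomal median was 0.28 without a flank and 0.080 with the higher-scoring 50%. LSD1 was in YAP only at 8 genes, WT only at 4 and both at 4 with a flank of 50 kb. With equal numbers of highest-scoring regions it was in YAP only at 2, Acsl1 and Etfb. H3K4me1 was in YAP only at 1 gene without a flank. Apart from the narrower windows and the smaller sets of regions, the cause of these changes was not tested.

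No paired analysis was possible because each list combines both replicates of a genotype, and for the same reason leaving out each replicate was not run. Read depth per library is unknown.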
